A study of Mus musculus with 52 samples.

Results

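Bead activation of mouse CD8+ T cells was followed by comparing cells cultured for 3 days with anti-CD3 and anti-CD28 beads with cells taken at day 0. The comparison used 12 of the 52 libraries of the series, chosen by their titles. The bead group was 3 libraries of cells kept for 3 days in uncoated wells with beads and IL-2, titled with the M numbers 1, 2 and 4. The day 0 group was 9 libraries of untreated cells, titled with the M numbers 1 to 8 and 10. All cells were taken from crushed spleens of OT-I mice, whose CD8+ T cells carry a transgenic receptor for an ovalbumin peptide, and were isolated with magnetic beads as naive CD8+ cells. A further 5 libraries of bead cells at day 7 in uncoated wells were compared with those of day 3. The labels do not say whether libraries came from separate mice, and if they did not, the spread behind each p-value may be technical. The age and sex of the mice are not given in the sources used here.

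A naive T cell is small and quiescent, and circulates through lymphoid organs using receptors such as CCR7 and the sphingosine receptor S1PR1. Antibodies to CD3 and CD28 on beads replace antigen and costimulation, and IL-2 then sustains growth and division. An activated CD8+ T cell turns on nutrient uptake, ribosome production and DNA replication, and loads granules with granzymes that kill target cells.

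RNA was measured by bulk MARS-seq, which reads the 3′ ends of transcripts. Library totals ran from 630736 to 1617410 counts at bead day 3 and from 733906 to 4641802 counts at day 0. The first principal component, over the 1000 most variable genes, held 82.1% of the variance and separated the bead libraries from the day 0 libraries. The second held 5.73% and split the day 0 libraries into those with M numbers 1 to 5 and those with M numbers 6 to 10. Of 8891 genes tested, 1956 had day 0 values that did not overlap between these sets, and Cd8a was among them. The labels name no batch, and the 3 bead libraries have M numbers of the first set, so both sets were also used alone. Mx1 and Ccnd1 did not pass the filter on low counts against M numbers 1 to 5, and Csf1 did not against M numbers 6 to 10, so their calls were not tested there.

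Most of the genes tested differed between bead day 3 and day 0. Day 0 cells were not cultured, so beads, IL-2 and 3 days of culture cannot be told apart here. At bead day 3 against day 0, 2654 of the 8891 genes tested rose (29.9%) and 3108 fell (35.0%), at an adjusted p under 0.05 in edgeR's quasi-likelihood test. The shares of 29.9% and 35.0% are the background for counts within lists at bead day 3 against day 0. Changes of at least 2-fold numbered 1677 upward and 2310 downward. With genes of other spleen cells left out, 2652 of 8817 genes rose (30.1%) and 3037 fell (34.4%). The median log2 fold change over all genes tested was -0.11. Scaling by library totals alone shifted that median to 0.19 and gave 3371 genes higher and 2390 lower, so directions of small changes rest on the scaling. Values below are in CPM, the counts scaled to a common library size after TMM scaling over the 12 libraries, and fold changes are log2 of bead day 3 over day 0 with their standard error (SE). The authors' deposited table called 7313 genes for the same groups, and 5654 of the 5762 genes called here were among them with the same sign.

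Transcripts of other spleen cells were set apart first, because day 0 libraries held many and bead libraries almost none. The 107 genes listed for erythroid, B, myeloid, NK, CD4, platelet and stromal cells and for MHC class II, together with immunoglobulin segments, took 0.134% to 0.140% of the counts at bead day 3, against 4.14% to 13.7% at day 0. Summed erythroid transcripts reached 33.9 to 69.9 CPM at bead day 3, against 25935 to 134109 CPM at day 0. The highest day 0 sums were 134109 CPM in M number 3 and 94108 CPM in M number 1. Hbb-bs, a beta-globin gene, had 29.9, 22.8 and 4.71 CPM in the bead libraries, against 11729, 20792 and 56329 CPM as the lowest, median and highest at day 0. No bead library came near any day 0 library for globin, and reads of the near-identical Hba-a1 and Hba-a2 copies cannot be told apart with certainty. MHC class II genes summed to 153 to 193 CPM at bead day 3, against 11229 to 20915 CPM at day 0. Cd74, the invariant chain that escorts class II molecules, fell by 7.11 ± 0.31 (SE) on the log2 scale (adjusted p = 3.85e-11). B cell genes summed to 704 to 775 CPM at bead day 3, against 4873 to 10081 CPM at day 0. Myeloid genes summed to 101 to 134 CPM at bead day 3, against 1115 to 3794 CPM at day 0. In such bulk samples, fewer cells of a type and less RNA per cell cannot be told apart.

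**Figure D1:**
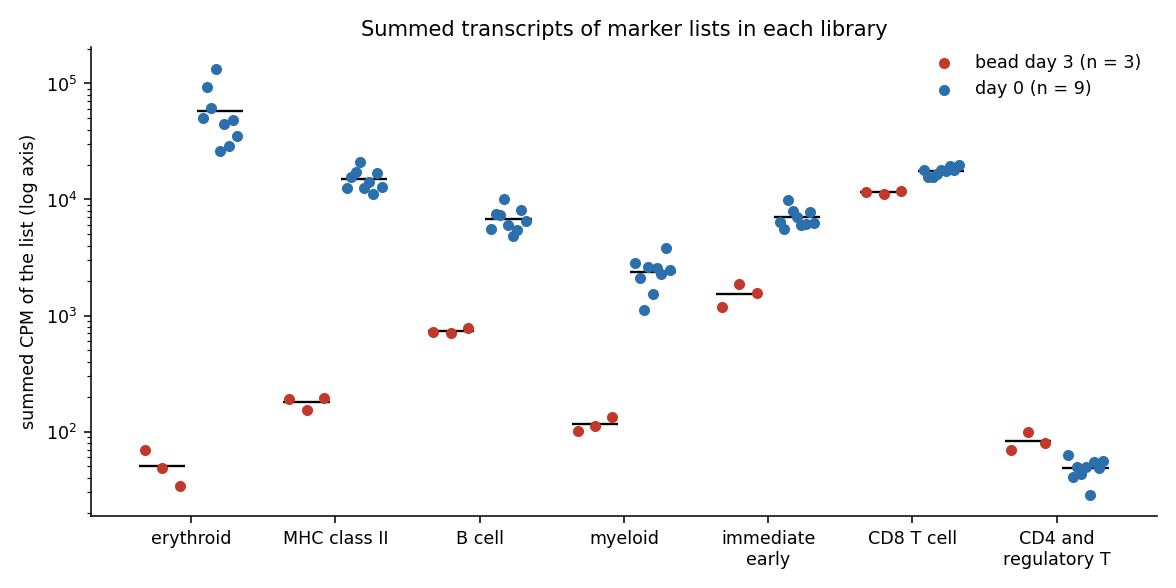
Summed CPM of each marker list (log axis) in every library, with bead day 3 on the left and day 0 on the right of each pair; points are libraries and bars are means. Erythroid sums lie between 33.9 and 69.9 CPM at bead day 3, against 25935 to 134109 CPM at day 0. CD8 T cell sums lie between 11052 and 11905 CPM at bead day 3, against 15541 to 19964 CPM at day 0. Scaled by library totals alone, the CD8 T cell ranges overlap, at 13091 to 13660 CPM at bead day 3 and 13549 to 19535 CPM at day 0.

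Among the tested members of these lists, 10 of 11 erythroid, 22 of 22 B cell, 22 of 22 myeloid and 10 of 10 MHC class II genes fell. Over all genes tested, 35.0% fell. Tested members without a count in any bead library, 4 erythroid, 3 B cell and 9 myeloid genes, passed the low-count filter through day 0 alone. Members with few bead counts also passed through day 0 alone, such as Ms4a1 and Pax5 with 1 count each over the bead libraries. The falls of all such members are therefore no independent support. Of the members in the table, 12 of 20 erythroid, 4 of 23 B cell and 19 of 33 myeloid genes had no count in any bead library. C1qa, a complement gene of macrophages, had 0 counts in all 3 bead libraries and 31.3, 105 and 271 CPM as the lowest, median and highest at day 0, which makes it at least 145-fold lower against a floor of 3 counts over the bead group. Ighm, the heavy chain of IgM, kept 658, 673 and 736 CPM in the bead libraries, against 2718, 3411 and 5260 CPM at day 0, while no other B cell gene exceeded 24.0 CPM in a bead library. Igkc, the kappa light chain, had 2.67, 0 and 0.943 CPM at bead day 3. Gata1 and Foxp3, chosen after their values were seen, went against these falls. Gata1, a transcription factor of red cell precursors, had 11.2, 12 and 13.2 CPM at bead day 3, against 0 to 5.57 CPM at day 0. Foxp3, the factor of regulatory T cells, had 24.0, 61.6 and 23.6 CPM at bead day 3, against 0 to 3.34 CPM at day 0, while Cd4 had 1.60, 0 and 0 CPM in the same bead libraries. 

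The largest falls were then read with the listed genes of other cells left out. By the rule for the largest changes, the 12 falling genes outside the lists were Spi1, Fcna, Fam43a, Mef2c, Cyp4f18, Rgs1, Tmcc2, Hes1, Ccr9, Slc11a1, Tgfbi and Plbd1. The call for Tmcc2 was lost without the bead library of M number 1 (adjusted p = 0.0590) and against day 0 M numbers 6 to 10 alone (adjusted p = 0.141), and held against M numbers 1 to 5 alone (adjusted p = 0.0144). Several are known from other spleen cells, among them Spi1, which encodes the factor PU.1 of myeloid and B cells, the ficolin Fcna of macrophages, and Slc11a1, a metal transporter of phagocytes. Spi1 had 0 counts in every bead library and 57.1, 79.6 and 134 CPM as the lowest, median and highest at day 0, at least 110-fold lower. In all, 34 genes had 0 counts in every bead library and a mean of at least 20 CPM at day 0, and 22 of them stood on no list of other cells. These genes fell in parallel with the listed transcripts of other cells, whose part in the falls was not tested.

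The markers of the sorted cells were present in every library, and most of them fell modestly. Of 22 genes of the T cell receptor complex, CD8 and proximal signalling, 1 rose and 15 fell, with a median log2 fold change of -0.73. Cd3e, a signalling chain of the receptor complex, had 171, 242 and 146 CPM at bead day 3, against 447, 630 and 733 CPM as the lowest, median and highest at day 0. All bead libraries lay under all day 0 libraries, a fall of 1.73 ± 0.19 (SE) on the log2 scale (adjusted p = 4.86e-07). Cd3d and Cd3g fell by 1.87 ± 0.33 and 1.89 ± 0.23 (SE) on the same scale. Thy1, a surface glycoprotein of T cells, was the 1 gene that rose, with 2143, 2477 and 2362 CPM at bead day 3, against 901, 1222 and 1478 CPM at day 0. Cd8a, which encodes the CD8 alpha chain, had 501, 522 and 485 CPM at bead day 3 and lay between the day 0 sets, which held 306 to 368 CPM in M numbers 1 to 5 and 682 to 723 CPM in M numbers 6 to 10. It was not called against all 9 libraries (log2 0.03 ± 0.31, SE, adjusted p = 0.936), was higher than the first set by 0.65 (adjusted p = 6.82e-05) and was lower than the second set, by -0.50 on the log2 scale (adjusted p = 8.52e-05).

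Genes of naive and quiescent T cells fell together. Of 29 tested, 25 fell and 1 rose, with a median log2 fold change of -2.73. Klf2, a transcription factor that maintains quiescence and homing, had 62.4, 70.9 and 89.6 CPM at bead day 3, against 3124, 3608 and 3970 CPM as the lowest, median and highest at day 0. The groups were far apart, and the fall was 5.6 ± 0.16 (SE) on the log2 scale (adjusted p = 1.16e-13). S1pr1, the sphingosine receptor that lets T cells leave lymphoid organs, had 25.6, 38.8 and 42.4 CPM at bead day 3, against 932, 1431 and 1765 CPM at day 0. Its fall was 5.25 ± 0.28 (SE), and the bead libraries again lay under all others. The IL-7 receptor gene Il7r, which serves survival of resting cells, had 2.67, 1.34 and 0 CPM at bead day 3, against 18.6, 45.3 and 68.2 CPM at day 0. Tcf7 and Lef1, the paired factors of naive and stem-like T cells, fell by 3.25 ± 0.17 and 2.85 ± 0.21 (SE). The chemokine receptor gene Ccr7 kept 192, 178 and 211 CPM at bead day 3, against 1366, 1801 and 2559 CPM at day 0, a fall of 3.34 ± 0.24 (SE). Ccr7 was higher at day 0 in M numbers 6 to 10 than in M numbers 1 to 5, and fell against either set. Bcl2, an anti-apoptotic gene and the exception that rose, averaged 76.8 ± 19.1 CPM at bead day 3 and 23.6 ± 6.13 CPM at day 0 (SD, n = 3 and n = 9). B cells also express several of these genes, among them Klf2, S1pr1 and Ccr7. Summed B cell transcripts were 704 to 775 CPM at bead day 3, against 4873 to 10081 CPM at day 0. Most of the bead sum was Ighm, at 658, 673 and 736 CPM, and no other B cell gene exceeded 24.0 CPM in a bead library. The part of B cells in these falls was not tested.

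**Figure D2:**
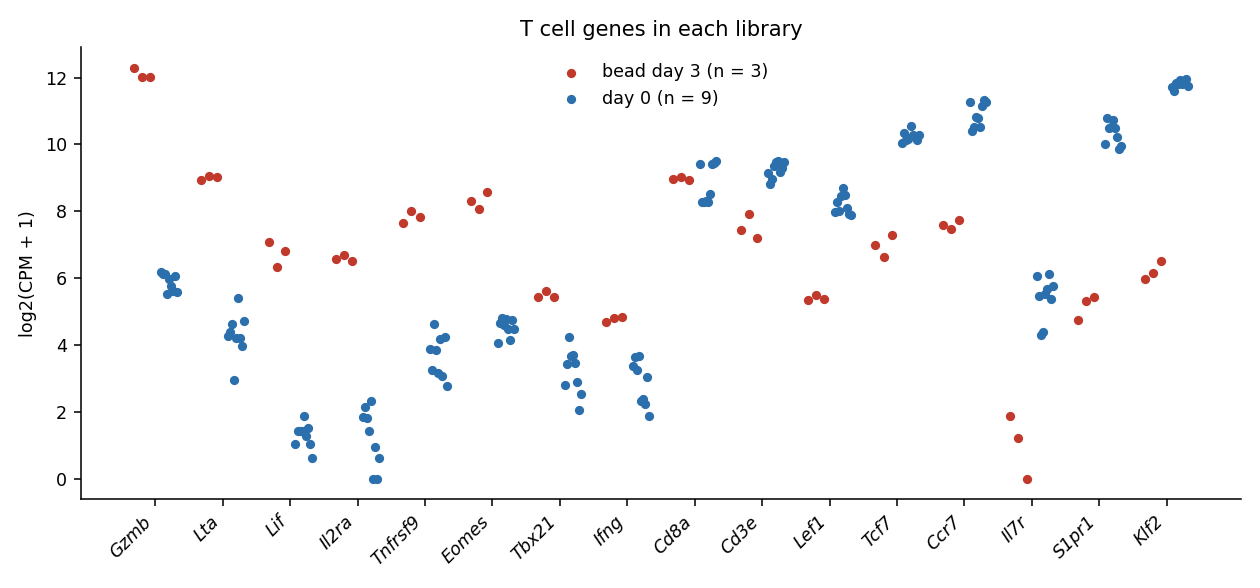
Levels of 16 T cell genes as log2(CPM + 1) in every library, with bead day 3 left of day 0 for each gene; each point is a library. Gzmb, Lta, Lif and Il2ra are high in all bead libraries, Klf2 and S1pr1 are high in all day 0 libraries, and Cd8a at day 0 falls into separate sets of 306 to 368 and 682 to 723 CPM.

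Effector genes did not move as a block. Gzmb, which encodes the protease granzyme B, had 5015, 4118 and 4111 CPM at bead day 3, against 45.2, 61.3 and 71.9 CPM as the lowest, median and highest at day 0. The rise of 6.20 ± 0.14 (SE) on the log2 scale (adjusted p = 2.49e-15) left no overlap. Of 22 cytotoxic granule genes counted, 12 were tested. Of these, 3 rose (25%) and 6 fell (50%), against 29.9% and 35.0% of all genes tested. Beside Gzmb, the genes that rose were Rab27a, a granule transport gene, and Ctsc, the protease that activates granzymes. Prf1, the pore-forming perforin, had 27.7, 20.1 and 24.5 CPM at bead day 3, against 47.1, 63.5 and 87.0 CPM at day 0, all lower. Gzma, the gene of granzyme A, fell by 1.91 ± 0.50 (SE), and Srgn, the proteoglycan that packs granules, fell by 2.39 ± 0.26 (SE). With no filter on low counts, 6 members rose and 5 fell, so this balance rests on which low genes are tested.

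Cytokine genes mostly rose, with 11 of 17 higher and 2 lower and a median log2 fold change of 1.36. Lif, a cytokine of the IL-6 family, had 133, 80.3 and 110 CPM at bead day 3, against 0.532, 1.67 and 2.66 CPM at day 0. Lta, the gene of lymphotoxin alpha, had 486, 527 and 520 CPM at bead day 3, against 6.69, 18.2 and 41.2 CPM at day 0. Both were higher in every bead library, by 6.23 ± 0.25 and 4.63 ± 0.22 (SE) on the log2 scale. Ifng, the gene of interferon gamma, had 24.5, 26.8 and 27.3 CPM at bead day 3, against 2.66, 7.28 and 11.7 CPM at day 0, a rise of 1.84 ± 0.35 (SE, adjusted p = 1.99e-04). Tnf rose by 1.36 ± 0.27 (SE). The chemokine gene Ccl5 went the other way, with 16.5, 13.4 and 17.0 CPM at bead day 3, against 233, 382 and 510 CPM at day 0. Csf1 also fell, with groups that overlapped, and its fall was lost without the bead library of M number 1 (adjusted p = 0.0976).

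Genes of cytokine receptors and their signalling moved both ways. Il2ra, the high-affinity chain of the IL-2 receptor, had 93.4, 103 and 89.6 CPM at bead day 3, against 0, 1.67 and 4 CPM at day 0, a rise of 5.54 ± 0.34 (SE, adjusted p = 5.79e-10). Socs2, a feedback inhibitor of cytokine signalling, had 288, 319 and 329 CPM at bead day 3, against 2.84, 11.1 and 23.9 CPM at day 0. Il6ra, the IL-6 receptor chain, fell by 4.37 ± 0.36 (SE). In all, 10 of 31 members rose and 15 fell, against 29.9% and 35.0% of all genes, so the list as a whole stood near the background in the upward direction.

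Surface molecules of activation gave a mixed picture too. Of 19 activation and costimulatory genes, 7 rose (36.8%) and 6 fell (31.6%), near the 29.9% and 35.0% of all genes tested. Tnfrsf9, the costimulatory receptor 4-1BB, had 198, 258 and 226 CPM at bead day 3, against 5.86, 13.4 and 23.7 CPM at day 0, and Tnfrsf18, the receptor GITR, rose by 1.98 ± 0.19 (SE). Cd69, an early activation antigen that also holds cells in tissue, had 1.60, 1.34 and 0 CPM at bead day 3, against 5.92, 21.7 and 112 CPM at day 0, where it was 5.92 to 21.7 CPM in M numbers 1 to 5 and 43.3 to 112 CPM in M numbers 6 to 10. Cd44, an adhesion receptor, averaged 30.5 ± 8.66 CPM at bead day 3 and 68.2 ± 16.7 CPM at day 0 (SD, n = 3 and n = 9), a fall. Ly6a, the surface antigen Sca-1, had 429, 4.02 and 16 CPM in the bead libraries, against 7.99, 22 and 46.8 CPM at day 0. Its call of higher rests on the bead library of M number 1, and without it the log2 fold change was -1.25 (adjusted p = 0.149). The call was also lost against either set of day 0 libraries alone (adjusted p = 0.0556 for M numbers 1 to 5 and 0.200 for M numbers 6 to 10). Of 13 inhibitory receptor genes, 3 rose and 7 fell, against 2 and 2 of 9 tested when day 0 was limited to M numbers 1, 2 and 4. Pdcd1, which encodes PD-1, had 16, 13.4 and 17.0 CPM at bead day 3, against 0, 1.84 and 8.36 CPM at day 0, and Lag3 rose by 2.07 ± 0.36 (SE). Ctla4 had 36.3, 29.4 and 24.5 CPM at bead day 3, against 10.0, 24.2 and 31.2 CPM at day 0, and was not called (adjusted p = 0.133). Cd72, a B cell inhibitory receptor, fell by 3.05 ± 0.25 (SE) together with the other B cell transcripts.

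Transcription factors of effector cells rose in 10 of 23 cases (43.5%) and fell in 7 (30.4%), against 29.9% and 35.0% of all genes tested. Eomes, a T-box factor of effector and memory CD8+ cells, had 317, 266 and 381 CPM at bead day 3, against 15.8, 23.4 and 27.1 CPM at day 0, a rise of 3.86 ± 0.16 (SE, adjusted p = 7.90e-12). Its relative Tbx21, the gene of T-bet, had 42.2, 48.2 and 42.4 CPM at bead day 3, against 3.12, 9.84 and 17.8 CPM at day 0. The groups did not overlap for either gene. Zbtb32 and Mycn rose by 4.44 ± 0.24 and 3.89 ± 0.48 (SE), and Rora fell by 3.91 ± 0.61 (SE). Irf4, a factor induced by receptor signalling, was not called against all 9 day 0 libraries, with 83.2, 104 and 74.5 CPM at bead day 3, against 58.2, 119 and 138 CPM at day 0. It was lower than day 0 M numbers 6 to 10 alone, by -0.54 on the log2 scale (adjusted p = 0.00321), and was not called against M numbers 1 to 5 (adjusted p = 0.337). Prdm1, the gene of Blimp-1, stayed low in both groups, with 8.44 ± 3.62 CPM at bead day 3 and 8.59 ± 5.55 CPM at day 0 (SD, n = 3 and n = 9).

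Immediate early genes and feedback genes of receptor signalling were lower at bead day 3. Of 16 feedback genes of the Nr4a, Egr, Dusp and Spry families, 9 fell and 1 rose. Nr4a1, an orphan nuclear receptor induced within hours of receptor signalling, had 12.8, 12 and 13.2 CPM at bead day 3, against 195, 413 and 549 CPM at day 0. It fell by 4.89 ± 0.45 (SE), and the Fos gene by 4.17 ± 0.68 (SE). Tissue dissociation can raise such transcripts, and 16 of 19 genes of the dissociation list fell, with summed levels of 1190 to 1863 CPM at bead day 3, against 5545 to 9920 CPM at day 0. The part of tissue handling at day 0 in these falls was not tested. Transcripts encoded by mitochondria summed to 165 to 494 CPM at bead day 3, against 132 to 648 CPM at day 0, and none of 6 tested was called.

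Chemokine and sphingosine receptor genes fell in 10 of 14 cases (71.4%), against 35.0% of all genes tested, with a median log2 fold change of -3.21. Cxcr3, whose receptor guides effector cells to inflamed tissue, was among the 2 that rose, by 2.10 ± 0.25 (SE). Cxcr5, the follicular receptor of B cells, had 1.60, 0 and 1.89 CPM at bead day 3, against 46.9, 76.7 and 109 CPM at day 0. Whether B cells had a part in the falls of these receptor genes was not tested. Of 32 adhesion genes, 7 rose and 18 fell. Fut7, a fucosyltransferase gene of leukocytes, rose by 5.10 ± 0.32 (SE). Itga4, an integrin chain, had 3.74, 1.34 and 0 CPM at bead day 3, against 30.1, 52.5 and 69.3 CPM at day 0, and Actn1, an actin crosslinker, fell by 3.47 ± 0.16 (SE). Itgal, the alpha chain of the integrin LFA-1, had 279, 206 and 229 CPM at bead day 3, against 159, 192 and 222 CPM at day 0, and its rise of 0.34 ± 0.13 (SE, adjusted p = 0.0319) was lost without the bead library of M number 1 or of M number 4. Its ligand gene Icam1 was not called (adjusted p = 0.554).

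Cell cycle genes gave the highest shares of risen members. Of 51 DNA replication genes tested, 49 rose and 0 fell, with a median log2 fold change of 2.34, and of 63 genes of G2 phase and mitosis, 60 rose and 1 fell, with a median of 2.96. Rrm2, the regulated subunit of ribonucleotide reductase, had 404, 403 and 404 CPM at bead day 3, against 7.99, 15.4 and 37.9 CPM at day 0. Cdc6, which loads the replicative helicase, had 95.5, 53.5 and 51.9 CPM at bead day 3, against 0, 3.68 and 10.1 CPM at day 0. Plk1, a mitotic kinase, had 275, 337 and 285 CPM at bead day 3, against 9.05, 15.1 and 24.1 CPM at day 0. Each of these was higher in all bead libraries, by 4.46 ± 0.26, 3.70 ± 0.37 and 4.27 ± 0.20 (SE) on the log2 scale. The proliferation marker gene Mki67 had 220, 110 and 103 CPM at bead day 3, against 10.0, 21.2 and 71.5 CPM at day 0, a smaller rise of 2.34 ± 0.42 (SE). Pttg1, the gene of securin, was the mitotic member that fell, with 27.2, 2.68 and 4.71 CPM at bead day 3, against 21.3, 38.3 and 54.4 CPM at day 0, and the bead library of M number 1 overlapped the day 0 range. In G1, 17 of 24 genes rose, with Ccne1, the gene of cyclin E1, at 179, 190 and 191 CPM at bead day 3, against 9.37, 17.0 and 22 CPM at day 0. The inhibitor gene Cdkn1b, whose protein p27 holds resting cells out of the cycle, fell by 3.27 ± 0.30 (SE). Ccnd1, the gene of cyclin D1, had 0 counts in all bead libraries and 5.08 to 31.2 CPM at day 0, at least 14.7-fold lower. Of 34 histone genes tested, 18 rose and 7 fell; H1f2, a linker histone gene, had 9.07, 12 and 18.9 CPM at bead day 3, against 337, 439 and 741 CPM at day 0. Histone genes share near-identical sequence, and how shared reads were counted is not given in the sources used here.

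Promoters of genes that rose are shown because factors known to control such genes bind short words in them. The searches covered all tested members of 6 lists, whichever way they moved. RefSeq windows on GRCm38.p6, from 250 bases before to 50 bases after the transcript start, were searched on both strands. E2F words were TTTCCCGC, TTTGGCGC, TTTGCCGC and TTTCGCGC; the word of mitotic genes (CHR) was TTTGAA; the Myc E-box was CACGTG; and the interferon element (ISRE) was GAAA, any 2 bases and GAAA again, and none of these words was required to stand apart from another. None of the E2F words holds the CHR or the E-box. An E2F word stood in 17 of the 49 windows of the 41 S phase members in the table (34.7%), against 2.26% of all 32851 windows and 4.35% of the 8756 windows of genes tested. The CHR stood in 40 of 55 windows of 53 G2 and mitosis members (72.7%), against 17.9% of all windows and 12.2% of those of tested genes. The E-box stood in 13 of 56 windows of 47 ribosome biogenesis members (23.2%), against 7.15% and 10.8%. The ISRE stood in 12 of 29 windows of 22 interferon members (41.4%), against 3.44% and 3.19%, and those members include genes that fell. Other words searched were the interferon gamma element GAS (TTC, any 3 bases and GAA), the FOXO word TGTTTAC and a sterol element (TCAC, any base and CCAC). GAS stood in 7 of the 29 interferon windows (24.1%), against 8.3% of all windows and 6.6% of those of tested genes. FOXO stood in 5 of 42 windows of 26 naive and quiescence members (11.9%), against 3.65% and 2.62%. The sterol element stood in 1 of 25 windows of 20 sterol and fatty acid members, against 1.24% and 1.1%. A match describes letters in the window and does not show binding. The member printed for each of the first 4 kinds of word is a called gene that rose and whose window held the word. Its mean at bead day 3 reached 20 CPM, and for the CHR a further such gene is printed. The genes printed are examples and need not have the highest fold change among members with the word. Capitals mark the word or its reverse complement, and all 5 windows lie on the plus strand: Cdc6 at chr11:98907901-98908200 with an E2F word, Ncapg at chr5:45669675-45669974 and Plk1 at chr7:122159185-122159484 with the CHR, Nop2 at chr6:125131633-125131932 with the E-box, and Igtp at chr11:58199306-58199605 with the ISRE.
Cdc6: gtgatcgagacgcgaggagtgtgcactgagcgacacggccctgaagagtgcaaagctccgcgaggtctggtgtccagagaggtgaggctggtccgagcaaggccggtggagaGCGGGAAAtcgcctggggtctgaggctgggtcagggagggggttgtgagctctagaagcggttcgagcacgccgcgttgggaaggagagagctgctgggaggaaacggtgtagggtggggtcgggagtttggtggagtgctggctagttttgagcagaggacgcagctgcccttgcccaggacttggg
Ncapg: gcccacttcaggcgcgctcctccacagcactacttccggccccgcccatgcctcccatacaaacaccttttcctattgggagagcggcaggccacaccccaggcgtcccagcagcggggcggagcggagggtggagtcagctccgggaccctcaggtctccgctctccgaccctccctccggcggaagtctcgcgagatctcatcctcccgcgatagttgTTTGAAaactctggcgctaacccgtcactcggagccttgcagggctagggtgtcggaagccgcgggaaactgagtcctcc
Plk1: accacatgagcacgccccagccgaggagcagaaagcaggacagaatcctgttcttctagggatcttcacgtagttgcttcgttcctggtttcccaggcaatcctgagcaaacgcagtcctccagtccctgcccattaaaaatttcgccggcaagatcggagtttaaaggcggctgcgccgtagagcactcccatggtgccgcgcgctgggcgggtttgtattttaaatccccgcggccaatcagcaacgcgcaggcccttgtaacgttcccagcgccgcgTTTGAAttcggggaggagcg
Nop2: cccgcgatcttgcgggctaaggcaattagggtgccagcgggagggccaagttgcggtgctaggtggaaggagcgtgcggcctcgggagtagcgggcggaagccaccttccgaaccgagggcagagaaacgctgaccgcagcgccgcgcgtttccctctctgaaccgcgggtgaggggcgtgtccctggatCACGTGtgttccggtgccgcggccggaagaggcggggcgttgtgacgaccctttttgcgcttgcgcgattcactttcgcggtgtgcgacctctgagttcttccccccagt
Igtp: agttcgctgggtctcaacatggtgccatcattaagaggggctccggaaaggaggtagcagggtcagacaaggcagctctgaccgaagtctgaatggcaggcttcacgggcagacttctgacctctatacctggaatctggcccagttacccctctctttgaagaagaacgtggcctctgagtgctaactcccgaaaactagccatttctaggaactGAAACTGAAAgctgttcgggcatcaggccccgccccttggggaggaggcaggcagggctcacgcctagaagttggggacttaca
In Cdc6 the word starts 138 bases before the transcript start and is on the opposite strand. In Ncapg the CHR starts 30 bases before the start, and in Plk1 at base 31 after it. The Nop2 E-box starts 60 bases before the start and the Igtp element 34 bases before it. Ncapg, a condensin subunit gene, had 83.2, 64.2 and 61.3 CPM at bead day 3, against 0, 3.73 and 5.99 CPM at day 0.

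**Figure D3:**
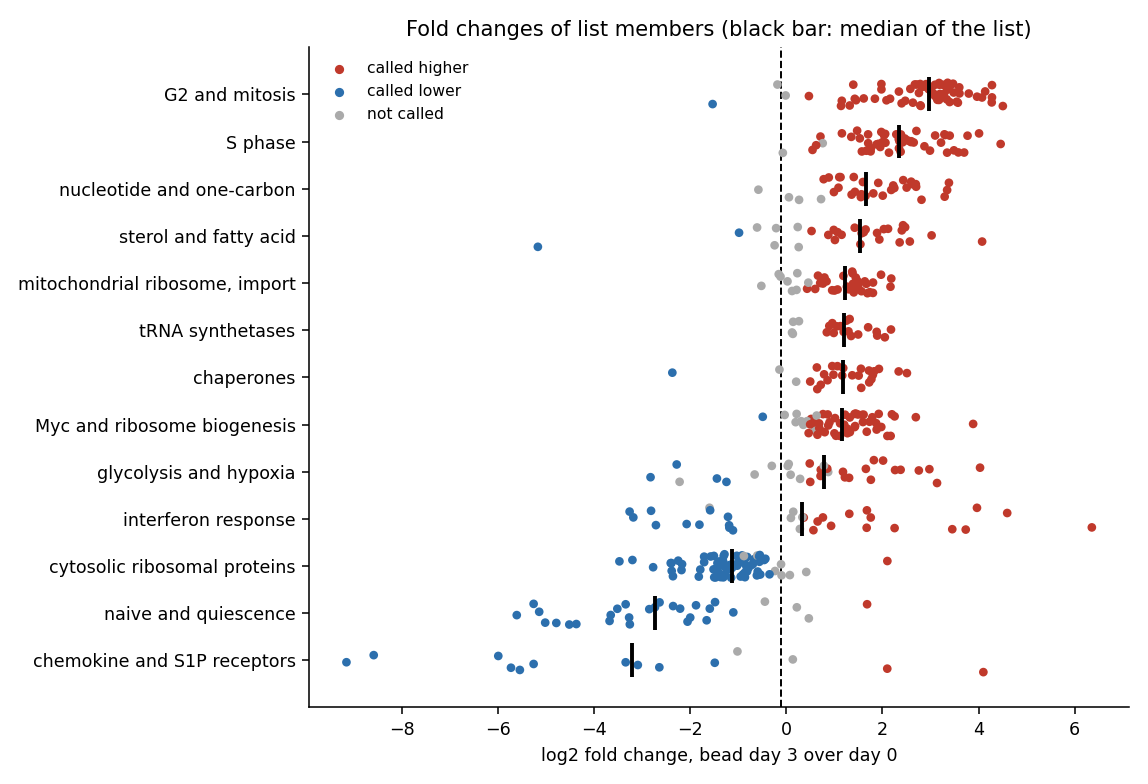
Log2 fold changes of bead day 3 over day 0 for every tested member of 13 lists; each point is a gene, black bars are list medians and the dashed line is the median of all genes tested, -0.11. G2 and mitosis (median 2.96) and S phase (2.34) lie to the right, and naive genes (-2.73) and chemokine receptors (-3.21) to the left.

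Genes for making ribosomes rose while those of the ribosome itself fell. Of 54 Myc and ribosome biogenesis genes, 45 rose and 1 fell, with a median log2 fold change of 1.16. Myc, the growth regulator, had 227, 234 and 322 CPM at bead day 3, against 46.9, 69.3 and 136 CPM at day 0. Nop2, a nucleolar RNA methyltransferase, had 187, 207 and 255 CPM at bead day 3, against 43.2, 45.7 and 58.5 CPM at day 0. Both lay above all day 0 libraries, by 1.67 ± 0.23 and 2.20 ± 0.13 (SE). Of 81 cytosolic ribosomal protein genes, 73 fell and 1 rose, with a median of -1.12. Scaling by library totals alone left 65 lower and 2 higher, with a median of -0.81. The riser was Rps27l, a homologue of the ribosomal gene Rps27, with 192, 198 and 214 CPM at bead day 3, against 33.9, 44.7 and 58.7 CPM at day 0. Rps27 itself fell by 3.20 ± 0.32 (SE). Ribosomal protein genes have many processed pseudogenes, and some of them, such as Rps15a with 13.5 ± 2.68 CPM at bead day 3 and 76.3 ± 54.0 CPM at day 0 (SD, n = 3 and n = 9), were counted at very low levels. Of 40 genes of the mitochondrial ribosome and import, 32 rose and 0 fell, with Mrpl51 at 164, 167 and 162 CPM at bead day 3, against 23.7, 38.1 and 47.9 CPM at day 0. Aminoacyl tRNA synthetase genes rose in 17 of 21 cases and translation factors in 20 of 23. Eif5a, an elongation factor that carries hypusine, averaged 2820 ± 155 CPM at bead day 3 and 825 ± 76.8 CPM at day 0 (SD, n = 3 and n = 9). Of 26 chaperone genes 23 rose, led by Hspd1, the mitochondrial chaperonin, which rose by 2.51 ± 0.13 (SE), and of 36 proteasome genes 26 rose and 2 fell.

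Metabolic genes rose across several pathways. Of 33 genes for nucleotides, folate and serine, 29 rose and 0 fell, with a median log2 fold change of 1.65. Srm, the spermidine synthase gene, had 697, 775 and 873 CPM at bead day 3, against 44.0, 77.0 and 105 CPM at day 0, and Shmt1, a serine hydroxymethyltransferase gene, rose by 3.29 ± 0.17 (SE). Of 29 sterol and fatty acid genes, 22 rose and 2 fell. Sqle, the gene of squalene epoxidase, had 104, 64.2 and 103 CPM at bead day 3, against 1.67, 10.1 and 25 CPM at day 0. Scd1, a stearoyl-CoA desaturase gene, went the other way with 0.534, 0 and 2.83 CPM at bead day 3, against 24.1, 46.8 and 56.5 CPM at day 0. Glycolysis and hypoxia genes rose in 18 of 31 cases and fell in 4. Ldha, which encodes lactate dehydrogenase, had 2640, 2638 and 2724 CPM at bead day 3, against 351, 533 and 637 CPM at day 0, a rise of 2.38 ± 0.14 (SE). Tpi1 rose by 3.14 ± 0.17 and the mitophagy gene Bnip3 by 4.03 ± 0.31 (SE), while its relative Bnip3l fell by 2.82 ± 0.27 (SE). Slc2a1, the gene of the glucose transporter GLUT1, had 94.4, 81.6 and 89.6 CPM at bead day 3, against 106 to 137 CPM in the day 0 libraries with M numbers 1 to 5 and 45 to 52.5 CPM in those with M numbers 6 to 10. Its log2 fold change was 0.03 (adjusted p = 0.945) against all 9, -0.43 (adjusted p = 0.0179) against the first set and 0.87 (adjusted p = 3.15e-05) against the second. Gapdh, a gene with many pseudogenes, had 27.7, 38.8 and 39.6 CPM at bead day 3, against 10.1, 16 and 557 CPM at day 0, and was not called. Respiratory chain and citric acid cycle genes rose in 39 of 65 cases and fell in 9. Slc7a5, the large neutral amino acid transporter gene, had 233, 139 and 313 CPM at bead day 3, against 29.5, 44.9 and 79.5 CPM at day 0; of 18 amino acid transport and stress genes, 6 rose and 3 fell.

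**Figure D4:**
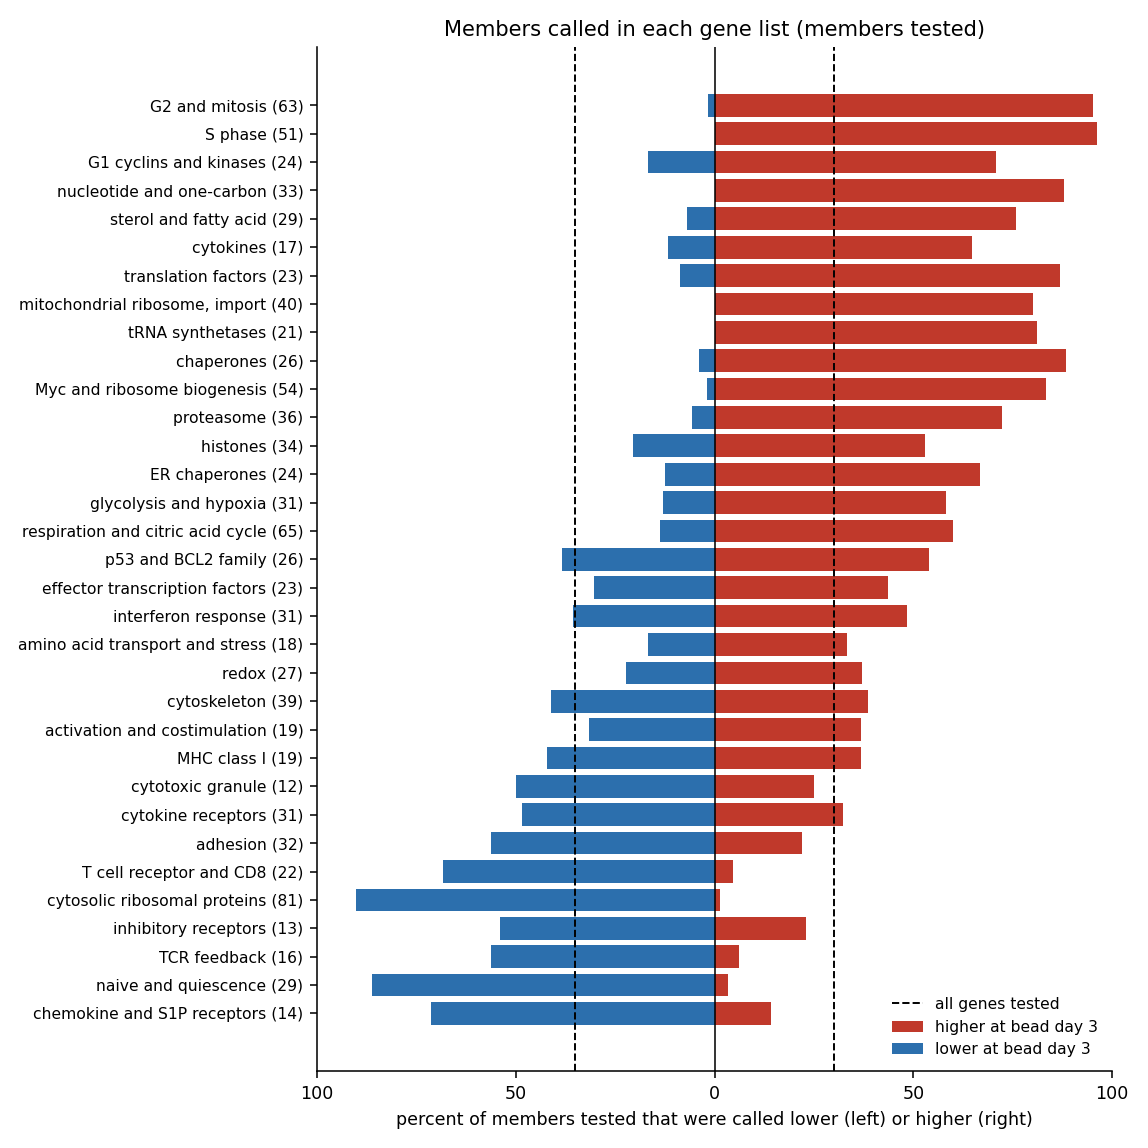
Percent of tested members of each list called lower (left bars) or higher (right bars) at bead day 3 against day 0, with members tested in brackets; dashed lines mark all genes tested, 35.0% lower and 29.9% higher. Among these lists, S phase and G2 and mitosis genes reach the highest upward shares (49 of 51 and 60 of 63), and cytosolic ribosomal protein genes the highest downward share (73 of 81).

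Interferon response genes moved both ways, with 15 of 31 higher and 11 lower. The immunity-related GTPase gene Igtp had 844, 693 and 802 CPM at bead day 3, against 22.2, 33.3 and 39.8 CPM at day 0, a rise of 4.60 ± 0.16 (SE, adjusted p = 1.18e-12). Iigp1, of the same family, had 51.2, 17.4 and 17.0 CPM at bead day 3, against 0 to 1.69 CPM at day 0. Gbp4 and Ifitm1 rose by 3.73 ± 0.35 and 3.97 ± 0.25 (SE). Mx1, an antiviral gene of the type I interferon response, had 2.13, 0 and 0 CPM at bead day 3, against 1.67, 8.52 and 19.8 CPM at day 0, and fell. Of 19 MHC class I genes, 7 rose (36.8%) and 8 fell (42.1%), near the 29.9% and 35.0% of all genes tested. With library totals as the scaling, 9 rose and 7 fell. Psmb8, a subunit of the immunoproteasome, had 1496, 1293 and 1671 CPM at bead day 3, against 314, 452 and 722 CPM at day 0. B2m, the light chain of class I, had 25.1, 32.1 and 32.1 CPM at bead day 3, against 102, 147 and 815 CPM at day 0. Its day 0 values were uneven, at 102 to 191 CPM in M numbers 1 to 5 and 146 to 815 CPM in M numbers 6 to 10. How fully reads of this gene were counted was not tested, so its level is uncertain.

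Survival and stress genes were also divided. Of 26 genes of the p53 and BCL2 families, 14 rose and 10 fell. Bcl2l1, the gene of the anti-apoptotic protein BCL-XL, had 127, 185 and 178 CPM at bead day 3, against 17.0, 39.5 and 74.9 CPM at day 0. Bbc3, the gene of the pro-apoptotic protein PUMA, had 4.27, 8.03 and 12.3 CPM at bead day 3, against 136, 268 and 382 CPM at day 0. Bcl2l1 rose by 2.02 ± 0.32 (SE) and Bbc3 fell by 5 ± 0.48 (SE), with no overlap in either case. Bmf, another pro-apoptotic gene, fell by 2.77 ± 0.45 (SE). Redox genes rose in 10 of 27 cases (37.0%) and fell in 6 (22.2%), against 29.9% and 35.0% of all genes tested. The thioredoxin reductase gene Txnrd1 rose by 2.35 ± 0.12 (SE). Endoplasmic reticulum chaperone genes rose in 16 of 24 cases and fell in 3. Of 39 cytoskeletal genes, 15 rose (38.5%) and 16 fell (41.0%), a balance that turned to 16 and 14 under library totals. Tuba1b, an alpha-tubulin gene, averaged 3464 ± 247 CPM at bead day 3 and 737 ± 103 CPM at day 0, and Lgals3, the gene of galectin-3, averaged 1208 ± 316 CPM at bead day 3 and 177 ± 35.2 CPM at day 0 (SD, n = 3 and n = 9).

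By the rule for the largest changes, the 12 rising genes outside the lists of other cells were Shroom3, Iigp1, Lif, Gzmb, Il2ra, Fut7, Gpr55, Lrr1, Socs2, Lta, Igtp and Exo1. Shroom3, an actin-binding shape regulator known from epithelia, had 12.3, 22.8 and 25.5 CPM at bead day 3, against 0 to 0.428 CPM at day 0, a rise of 6.49 ± 0.54 (SE, adjusted p = 1.85e-08). Gpr55, a lysolipid receptor gene, had 27.2, 44.2 and 38.7 CPM at bead day 3, against 0, 0.855 and 2.76 CPM at day 0. Exo1, a DNA repair exonuclease gene, rose by 4.58 ± 0.36 (SE). All 12 were higher in every bead library than in any day 0 library, which the rule asked for.

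Bead cells of day 7 in uncoated wells were set beside those of day 3. Values of this comparison are CPM scaled over its own 8 libraries, and the bead day 3 libraries are the same as above. At bead day 3 against bead day 7, 977 of 9024 genes were higher (10.8%) and 1074 lower (11.9%). With the M number as a block, 555 genes were higher and 787 lower; the labels do not explain the numbers. Leaving out 1 bead day 3 library gave 1033 calls without M number 1, 1016 without M number 2 and 891 without M number 4, against 2051 with all. The count of genes higher was 545 without the day 7 library of M number 3 and 536 without that of M number 5.

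Some effector genes were higher at day 3 than at day 7. Of 22 effector transcription factor genes, 8 were higher and 3 lower, against 10.8% and 11.9% of all genes. Among 17 activation and costimulatory genes, 1 was higher and 1 lower. Among 10 inhibitory receptor genes, 1 was higher and 0 lower. Tbx21 had 47.2, 54.9 and 48.1 CPM at bead day 3, against 12.4, 23.3, 15.8, 16.3 and 9 CPM at bead day 7. Irf4 had 93.1, 119 and 84.5 CPM at bead day 3, against 35.2, 28.2, 43.7, 41.5 and 59.6 CPM at bead day 7. Lag3 had 25.1, 36.6 and 27.8 CPM at bead day 3, against 3.25, 9.21, 5.70, 8.14 and 10.5 CPM at bead day 7. The groups did not overlap for these genes, whose log2 fold changes were 1.71 ± 0.27, 1.23 ± 0.22 and 1.97 ± 0.34 (SE). Ldha and Cd8a were higher by 0.86 ± 0.19 and 0.97 ± 0.12 (SE). The 6 genes with the largest differences by the fixed rule were Rpph1, the RNA subunit of RNase P, Shroom3, Batf3, Sema7a, H3c1 and Tle1, with log2 differences from 4.47 for Rpph1 to 2.73 for Tle1. Ifng was higher by 1.30 ± 0.38 (SE, adjusted p = 0.0288), and lost its call without any 1 of the bead day 3 libraries.

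Other genes were lower at day 3 than at day 7, and of these Gzma and Prf1 were also lower than at day 0. Gzma had 8.96, 3.05 and 6.42 CPM at bead day 3, against 60.6, 142, 183, 108 and 96.0 CPM at bead day 7. Prf1 had 31.0, 22.9 and 27.8 CPM at bead day 3, against 61.7, 111, 46.2, 47.2 and 69.4 CPM at bead day 7. Both were lower in every bead day 3 library, by -4.10 ± 0.46 and -1.28 ± 0.30 (SE) on the log2 scale, and the call for Prf1 was lost without the bead day 3 library of M number 2 or of M number 4. Gzmb, with 4990 ± 538 CPM at bead day 3 and 4046 ± 1321 CPM at bead day 7 (SD, n = 3 and n = 5), was not called (adjusted p = 0.366). Klhl30, a gene of the kelch family, had 2.99, 0 and 0 CPM at bead day 3, against 50.3 to 115 CPM at bead day 7. Sult2b1, a sterol sulfotransferase gene, and Ifitm2, an interferon-induced membrane protein gene, were lower by -5.32 ± 0.54 and -4.02 ± 0.32 (SE). Mx1 and Serpinb6b were lower as well, and Mx1 lost its call without any 1 of the bead day 3 libraries and Serpinb6b without those of M numbers 2 or 4. Klf2 and Ccr7, low at day 3 against day 0, were not called between day 3 and day 7 (adjusted p = 0.200 and 0.795).

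**Figure D5:**
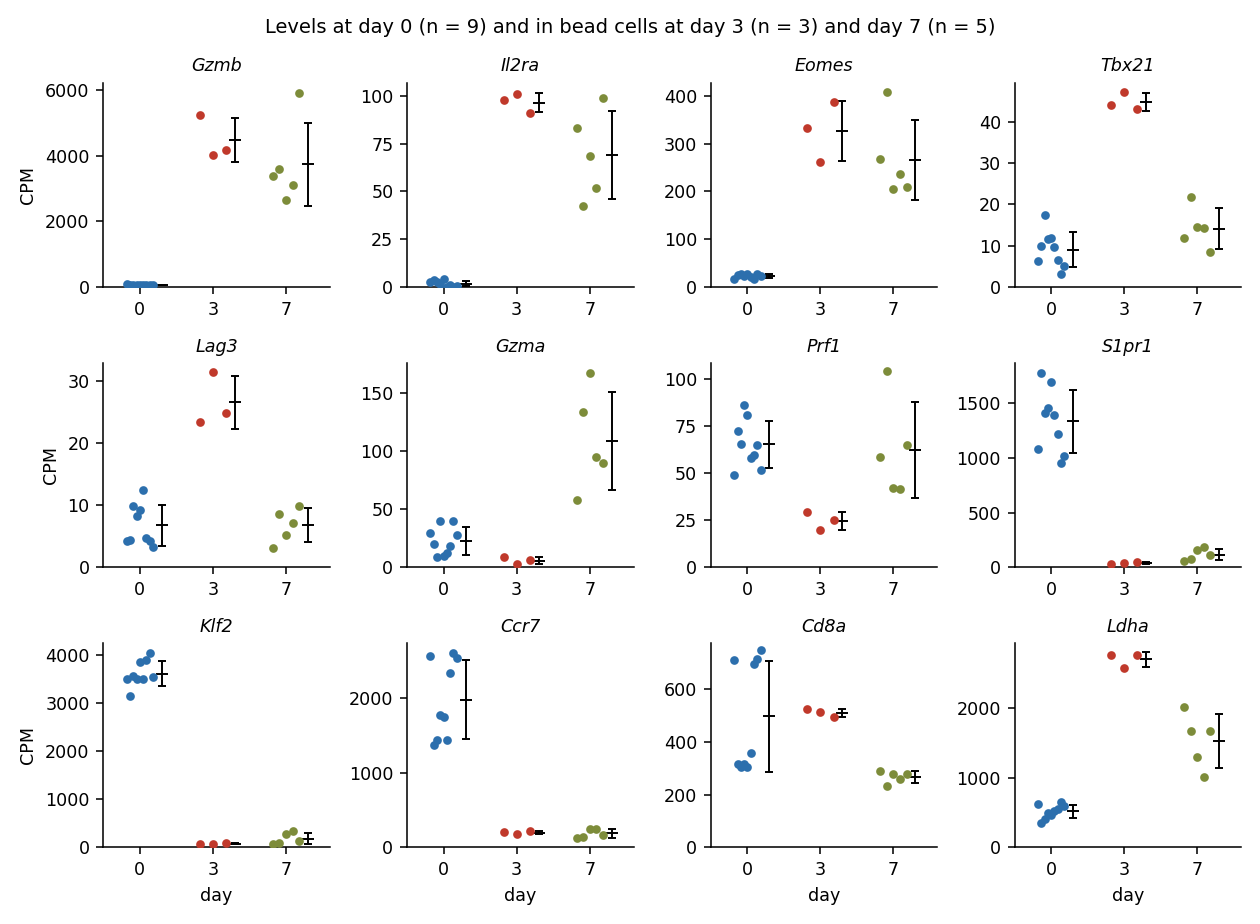
CPM of 12 genes at day 0 (9 libraries) and in bead cells at day 3 (3 libraries) and day 7 (5 libraries), scaled over all 17 libraries; points are libraries and bars are means ± SD. Gzmb and Eomes stay high at both bead times, Tbx21 and Lag3 are highest at day 3, Gzma is highest at day 7, and Cd8a at day 0 lies in separate sets.

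At bead day 3 against bead day 7 the lists differed. Ribosome biogenesis genes were higher in 38 of 54 cases and lower in 0, with 26 higher under the block. Chaperone genes were higher in 16 of 26 cases and S phase genes in 18 of 52, while mitotic genes were higher in 3 of 64 and lower in 1, under the background of 10.8%. Histone genes were higher in 21 of 36 cases and lower in 5. Cytotoxic granule genes were lower in 8 of 17 cases and higher in 0, and MHC class I genes were lower in 9 of 19, each also under the block. Of 31 sterol and fatty acid genes, 0 were higher and 1 was lower at day 3 than at day 7, with the same counts under the block.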

How the data were processed

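Bulk MARS-seq libraries were deposited by the authors as a table of counts per gene, in columns that the file headers mark as raw. Per the submitters' processing notes, the mm10 genome was used, with STAR 2.4.2a among the tools beside HTSeq, cutadapt, bcl2fastq and DESeq2; whether molecular tags were collapsed is not given in the sources used here. The deposited table also holds the authors' own log2 fold changes and p-values per comparison, used only where named. Counts of the 12 libraries were filtered (filterByExpr, minimum count 10 and total 15), scaled by TMM and tested in edgeR 4.0.16 (R 4.3.3, limma 3.58.1) by the robust quasi-likelihood test with Benjamini-Hochberg adjustment, after a test on simulated data; 8891 of 14626 genes were tested. CPM are those scaled counts. DESeq2 1.42.0, other scalings, no filter, a replicate block, other sets of day 0 libraries and leaving out each library were alternatives. The members and the 43 gene lists were chosen with earlier results of these data known. Genes were named by a fixed rule: up to 12 called genes per direction with the largest fold change, no overlap and at least 20 CPM in the higher group; up to 4 per list, with the few that went against their list; up to 3 per list of other cells; up to 6 per direction at day 7; and a fixed set of T cell genes. Some of the genes that the rule names are not reported here. No 2 libraries held identical counts. For day 3 and day 7, deviations from the group means of same-numbered libraries correlated at 0.242, 0.269 and 0.138, each over 0.1, so a fit with the M number as a block is given; bead day 3 M number 1 correlated more with day 7 M numbers 5 (0.366) and 3 (0.276) than with its own number, and the labels do not explain the numbers. Promoters were taken from RefSeq, GRCm38.p6.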

Additional observations from a re-analysis of the deposited data

Results flagged for a closer look

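Single libraries stood far from the rest of their group for 17 of 243 combinations of gene and group, by Dixon's test at its 95% critical value, which chance passes in about 1 in 20 groups. At bead day 7, the highest libraries were M number 5 for Gzmb at 6328 CPM and for Mx1 at 135 CPM, and M number 3 for Rps27 at 690 CPM. Also at bead day 7, M number 2 stood apart for Cd8a at 247 CPM, Eomes at 435 CPM and Fos at 31.3 CPM, M number 4 for Actn1 at 99.3 CPM and M number 1 for Shmt1 at 81.1 CPM. At day 0, M number 10 was highest for the cell cycle genes Mki67 at 71.5 CPM and Rrm2 at 37.9 CPM, and also stood apart for Gbp4 at 9.42 CPM, Tmcc2 at 119 CPM and Klhl30 at 1.07 CPM. The other day 0 libraries that stood apart were M number 7 for Ccnd1 at 31.2 CPM, M number 3 for Nop2 at 58.5 CPM, M number 2 for Iigp1 at 1.69 CPM and M number 1 for Shroom3 at 0.428 CPM.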

How the results depend on the processing

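Counts of calls over all genes tested at bead day 3 against day 0 stayed within 1.5 times their values under all alternatives run; counts within single lists moved further, for cytotoxic genes to 6 higher with no filter and for inhibitory receptors to 2 lower against day 0 M numbers 1, 2 and 4. The replicate block called 6047 genes there, of which 5338 were among the 5762; the M numbers were not shown to pair these libraries, with correlations of 0.0165, 0.178 and 0.0434. Of 212 named genes called, 184 were called in every alternative and 28 were lost in at least 1. Directions reversed for Slc2a1, at -0.39 with the replicate block, -0.42 against day 0 M numbers 1, 2 and 4 and -0.43 against M numbers 1 to 5, for Cd8a, at -0.50 against M numbers 6 to 10, and for Ly6a, at -1.25 without the bead library of M number 1; leaving out each library in turn, Ly6a ranged from -1.25 to 3.14. Sets of day 0 libraries were chosen after seeing the data. At bead day 3 against bead day 7, the block gave 1342 calls, 555 of them higher. It moved Ppia, which was not called in the main fit (log2 -0.0027, adjusted p = 0.999), to 1.18 (adjusted p = 0.0120). Leaving out 1 library gave 891 to 2375 calls, with 365 to 1146 higher and 526 to 1267 lower. Calls lost under the block included Itgal (adjusted p = 0.0633) and Bcl2 (adjusted p = 0.0670). Bead libraries held as few as 630736 counts, which limits genes near the floor of 3 counts.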
